A study of Drosophila melanogaster with 8 samples.

Results

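RNA levels of 10 genes that mark the identity or the signalling state of follicle cells were measured in ovaries of Drosophila melanogaster. They were taken by symbol from a set list: tj, Fas3, eya, mirr, kek1, Egfr, ttk, br, EcR and slbo. The list was drawn up with earlier results of these data known. Its genes make up 10 of the 18959 genes, transposons and unmatched transcripts measured. Each gene's value is its FPKM (fragments per kilobase of transcript and per M reads), summed over its transcripts. Ovaries of Oregon-R, a common wild-type laboratory strain, were compared with ovaries of flies carrying 1 of the alleles egt17 and egt8, which the labels call null. The mutated gene, named boot in the series, is taken here to be Boot, a germline factor of the piRNA pathway, which silences transposons with small RNAs. All flies were kept at 25 °C, and there were 4 total RNA libraries: wild type 1, wild type 2, egt17 and egt8. The labels give no age, number of pooled flies or separate origin of the wild-type libraries, so p-values cover the spread from library to library alone, part or all of which may be technical. Each allele was sequenced in 1 library, and the 2 alleles stand as the replicates of the null genotype.

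Each Drosophila egg chamber is a germline cyst wrapped in a single layer of somatic follicle cells. These cells arise from stem cells in the germarium and split early into polar cells, stalk cells and main-body cells. Signals then pattern the main-body epithelium: Gurken from the oocyte activates the receptor Egfr in neighbouring follicle cells, while Notch, JAK-STAT and the steroid hormone ecdysone drive later steps, and the mature epithelium secretes the eggshell. Transcription factors and surface proteins that appear at set times and places, such as Traffic jam (tj), Eyes absent (eya) and Fasciclin 3 (Fas3), are used to tell these cells apart.

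The libraries differed by more than genotype. The first wild type and egt17 were sequenced to about 6.32 M and 6.15 M reads, wild type 2 and egt8 to about 16.6 M and 15.9 M, as read from steps in the values. Across the 8755 features with at least 1 FPKM in at least 2 libraries, Pearson's r of log2(FPKM + 1) was 0.966 for wild type 1 with egt17 and 0.948 for wild type 2 with egt8. The wild types had 0.901 with each other and the mutants 0.876, all computed across genes, which share their library and are no replicates. Wild type 1 with egt17 is called the first pair below, and wild type 2 with egt8 the second. The labels name no such batch. Boot itself measured 88.6 and 89.7 FPKM in wild type, 40.6 in egt17 and 52.1 in egt8, so both mutants were lower (log2 difference -0.94 ± 0.32, limma adjusted p = 0.9999).

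All 10 genes were detected in every library and passed the filter. Limma, a linear model fitted to log2(FPKM + 1) of all 8755 features with Benjamini-Hochberg adjustment, called none of the 10 different between null and wild type, as it called 0 (0%) of all features. Unadjusted p was under 0.05 for 0 of the 10 and for 166 of all features. With the library pair as a term the model called 0 of the 10 and 13 of all (0.148%). By level alone, kek1, eya, Egfr and Fas3 were higher in both mutants than in both wild types, 4 of 10 genes, where 9.34% of all features were so placed. A set of 7 (those 4 with tj, br and slbo) was higher than the paired wild type in both pairs, against 24.9% of all features, and none was lower in both pairs, against 37.0%. Of the 10, 8 had their highest value in egt8, against 16.5% of all features. The median log2 difference of the 10 was 0.54, against -0.060 over all features. Without egt8 it was 0.077 over the 9 genes that then passed the filter, beside 0.071 over all features, and without wild type 1 it was 0.16, beside 0.0020. Centring the libraries on their medians shifts every difference by 0.086. In bulk RNA, fewer or more follicle cells and less or more RNA in each of them cannot be told apart.

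**Figure D1:**
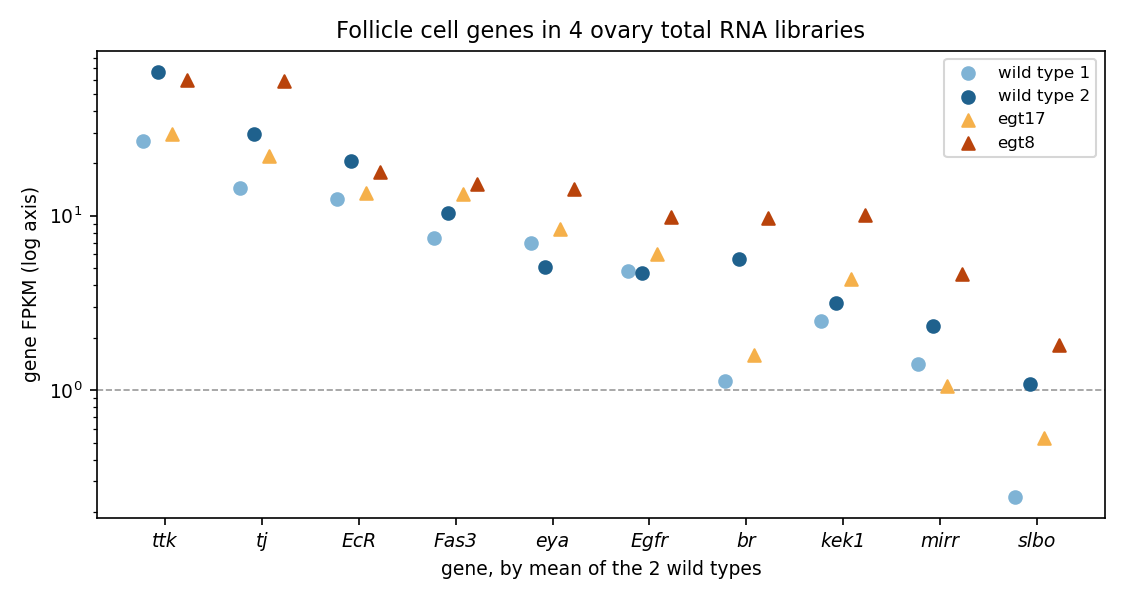
FPKM of each gene (log axis) in wild type 1 and 2 (circles) and in egt17 and egt8 (triangles), 1 library each, ordered by the wild-type mean, with a dashed line at 1 FPKM. Both triangles lie above both circles for Fas3, eya, Egfr and kek1, and egt8 is the highest point for 8 genes.

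Levels ran over nearly 2 orders of magnitude in wild type. The mean was 46.8 ± 28.2 FPKM for ttk (SD, n = 2), 21.9 ± 10.5 for tj, 16.6 ± 5.86 for EcR, 8.91 ± 2.03 for Fas3 and 6.03 ± 1.30 for eya. Lower down, Egfr had 4.75 ± 0.108 FPKM, br 3.40 ± 3.21, kek1 2.81 ± 0.461, mirr 1.87 ± 0.652 and slbo 0.668 ± 0.598. The wild-type ranges of ttk and tj overlapped, as did those of tj and EcR, of Egfr and br, and of br and kek1. The other neighbours in this order (EcR and Fas3, Fas3 and eya, eya and Egfr, kek1 and mirr, mirr and slbo) had wild-type ranges that did not overlap. By summed FPKM, ttk, tj, EcR and Fas3 held places 1 to 4 in this order in all 4 libraries, and slbo the last.

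The lineage genes come first. Tj (FBgn0000964; chromosome 2L, 19464267 to 19467758 in the Release 6 assembly) encodes a large Maf transcription factor of somatic gonad cells that activates piwi in follicle cells. It stood at 14.5 FPKM in wild type 1, 29.4 in wild type 2, 21.9 in egt17 and 59.3 in egt8. The groups overlapped, since egt17 lay below wild type 2. Within the pairs tj was 1.51-fold higher in egt17 than in wild type 1 and 2.02-fold higher in egt8 than in wild type 2. On the log2(FPKM + 1) scale, which understates changes of low values, the difference was 0.78 ± 0.64 (SE, n = 2 against 2), with a limma adjusted p of 0.9999. The pair term brought the SE to 0.20 and the limma adjusted p to 0.259, the lowest of the 10 genes. Wild type 2 was 2.03-fold above wild type 1, as large as either step between mutant and wild type. Without egt8 the log2 difference was 0.077.

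Eya (FBgn0000320; 2L, 6527447 to 6546976) encodes a nuclear phosphatase and cofactor that main-body follicle cells keep and polar and stalk cells lose. Its values were 6.95 FPKM in wild type 1, 5.11 in wild type 2, 8.35 in egt17 and 14.2 in egt8. Both mutants were above both wild types, egt17 by a small step. The ratio to the paired wild type was 1.20 in egt17 and 2.78 in egt8. The fitted log2 difference was 0.77 ± 0.49, with a limma adjusted p of 0.9999, or 0.404 with the pair term. Eya and Egfr were the genes of the set in which wild type 2 was below wild type 1.

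Fas3 (FBgn0000636; 2L, 18320102 to 18393441) encodes an adhesion protein of young follicle cells that later stays on polar cells. It measured 7.47 FPKM in wild type 1 and 10.3 in wild type 2, against 13.3 in egt17 and 15.2 in egt8. The groups did not overlap, and Fas3 was 1.78-fold higher in the mutant in the first pair and 1.47-fold higher in the second. The log2 difference of 0.64 ± 0.43 had a limma adjusted p of 0.9999 and, with the pair term, 0.362. Leaving out any 1 library gave differences from 0.43 to 0.85. The nested genes Acp36DE and CG34171 within the span of Fas3 had at most 0.05 FPKM.

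The next group belongs to Egfr signalling. Egfr (FBgn0003731; 2R, 21522420 to 21559977) encodes the receptor tyrosine kinase that receives Gurken. It was at 4.82 FPKM in wild type 1, 4.67 in wild type 2, 6.04 in egt17 and 9.86 in egt8. The wild types nearly coincided, and both mutants lay above them. Within pairs Egfr RNA was 1.25-fold higher in egt17 and 2.11-fold higher in egt8. Limma gave a log2 difference of 0.61 ± 0.47 and an adjusted p of 0.9999, or 0.447 with the pair term.

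Kek1 (FBgn0015399; 2L, 12817000 to 12822787) encodes a transmembrane protein with leucine-rich repeats that is induced by Egfr signalling and inhibits the receptor. Its FPKM was 2.49 in wild type 1, 3.14 in wild type 2, 4.33 in egt17 and 10.04 in egt8. The mutants lay above the wild types without overlap, and egt8 stood well apart from the other 3 libraries. Kek1 had the largest difference of the set, 1.01 ± 0.55 on the log2 scale, at the percentile 97.3 of the signed differences of all features. The limma adjusted p was 0.9999, and 0.330 with the pair term. The fold within pairs was 1.74 in egt17 and 3.20 in egt8, and the log2 difference without egt8 was 0.49.

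Mirr (FBgn0014343; 3L, 12693639 to 12710249) encodes a homeodomain factor of the Iroquois family that Egfr signalling switches on in dorsal anterior follicle cells. It was measured at 1.41 FPKM in wild type 1, 2.33 in wild type 2, 1.06 in egt17 and 4.63 in egt8. The alleles parted: egt17 was the lowest library and egt8 the highest. The lower value rested on few reads. Values implied at least 33 reads in wild type 1 (95% exact Poisson interval 22.7 to 46.3, counting error only). In egt17 they implied at least 23 (14.6 to 34.5), and the intervals of these lowest counts overlap. The second pair had at least 140 reads (118 to 165) and 268 (237 to 302), a 1.98-fold step in FPKM. The pooled log2 difference was 0.26 ± 0.64 (limma adjusted p = 0.9999, and 0.789 with the pair term), and it was -0.46 without egt8.

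**Figure D2:**
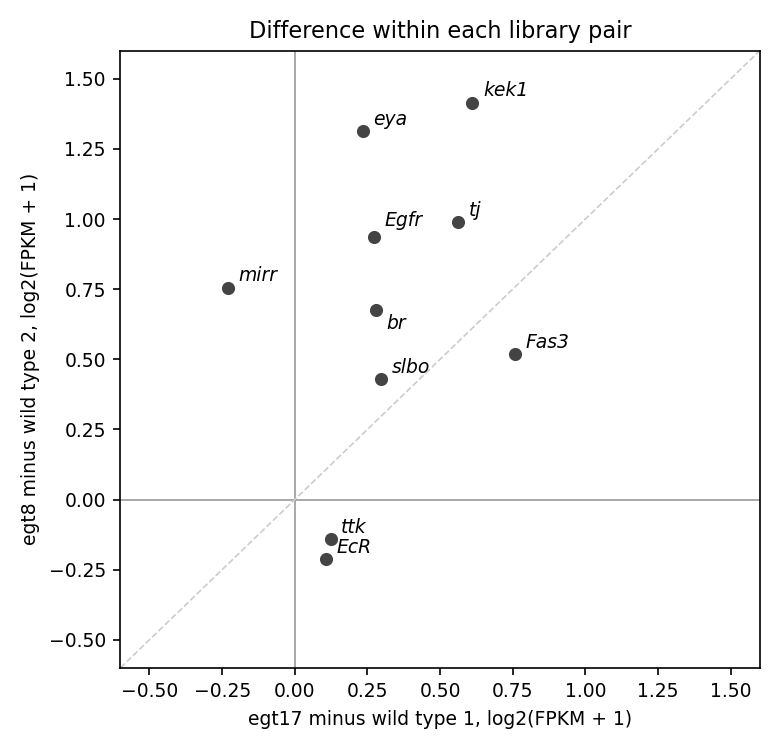
Difference of log2(FPKM + 1) between egt17 and wild type 1 (horizontal) and between egt8 and wild type 2 (vertical), 1 point per gene, with a dashed line of equal differences. Kek1, eya, tj, Egfr, br, slbo and Fas3 lie in the upper right part, mirr is positive in the second pair alone, and ttk and EcR lie near 0 in both.

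The genes of the ecdysone response come next. EcR (FBgn0000546; 2R, 6087873 to 6169087) encodes the ecdysone receptor, a nuclear receptor that binds DNA with its partner Usp. It was at 12.4 FPKM in wild type 1, 20.7 in wild type 2, 13.5 in egt17 and 17.7 in egt8. The mutants lay inside the wild-type range, and the order followed the pairs. Limma gave a log2 difference of -0.052 ± 0.46, which became 0.034 when libraries were centred on their medians, with an adjusted p of 0.9999, or 0.934 with the pair term. The ratio was 1.08 in egt17 and 0.857 in egt8. Of the 15 annotated genes within its span, 13 are tRNA genes with no value in the table, and the others had at most 0.296 FPKM.

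Br (FBgn0283451; X, 1575132 to 1664869) encodes Broad, a family of BTB zinc finger factors that answers ecdysone early and marks the cells that form the roof of the dorsal appendages. It stood at 1.13 FPKM in wild type 1, 5.67 in wild type 2, 1.59 in egt17 and 9.65 in egt8. Br followed the library pairs more than any other gene of the set: wild type 2 was 5.0-fold above wild type 1, and egt8 6.07-fold above egt17. Within pairs the mutant was 1.40-fold higher in egt17 and 1.70-fold higher in egt8. In the first pair values implied at least 40 reads in wild type 1 (28.6 to 54.5) and 58 in egt17 (44.0 to 75.0). Again the counting intervals of these lowest counts overlapped. The fitted log2 difference was 0.48 ± 0.94, with a limma adjusted p of 0.9999, or 0.542 with the pair term, and it was -0.54 without egt8 and -0.35 without wild type 1. Mur2B, a gene inside the br span, went another way, from 21.5 and 77.0 FPKM in wild type to 3.15 in egt17 and 47.8 in egt8. The strand of the reads is not given in the sources used here.

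Ttk and slbo, the last of the set, are regulators of later follicle cells. Ttk (FBgn0003870; 3R, 31713867 to 31735392) encodes Tramtrack, a BTB zinc finger factor needed for the late differentiation of follicle cells and for eggshell gene expression. Its highest transcript was below that of tj in every library, for instance at 4.28 against 7.93 FPKM in wild type 1. Summed over its 8 transcripts, ttk was the most abundant of the 10, at 26.9 FPKM in wild type 1, 66.7 in wild type 2, 29.3 in egt17 and 60.4 in egt8. Libraries of the second pair were both above those of the first, and within pairs the ratio was 1.09 in egt17 and 0.905 in egt8. The log2 difference was -0.0095 ± 0.61, which turned to 0.076 with median centring, with a limma adjusted p of 0.9999, or 0.985 with the pair term. Its SE with that term, 0.16, was the smallest of the set.

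Slbo (FBgn0005638; 2R, 24331522 to 24334307) encodes the C/EBP transcription factor required for border cells, a small group of follicle cells, to migrate. It was at 0.245 FPKM in wild type 1, 1.09 in wild type 2, 0.530 in egt17 and 1.81 in egt8. Slbo passed the filter through the second pair alone. The values implied at least 4 reads in wild type 1 (1.09 to 10.2), 34 in wild type 2 (23.5 to 47.5), 5 in egt17 (1.62 to 11.7) and 55 in egt8 (41.4 to 71.6). These intervals belong to the lowest counts that matched, and the true counts may be higher. The intervals as computed overlapped within each pair. The log2 difference was 0.36 ± 0.55 (limma adjusted p = 0.9999, and 0.671 with the pair term). It was -0.011 without wild type 1.

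**Figure D3:**
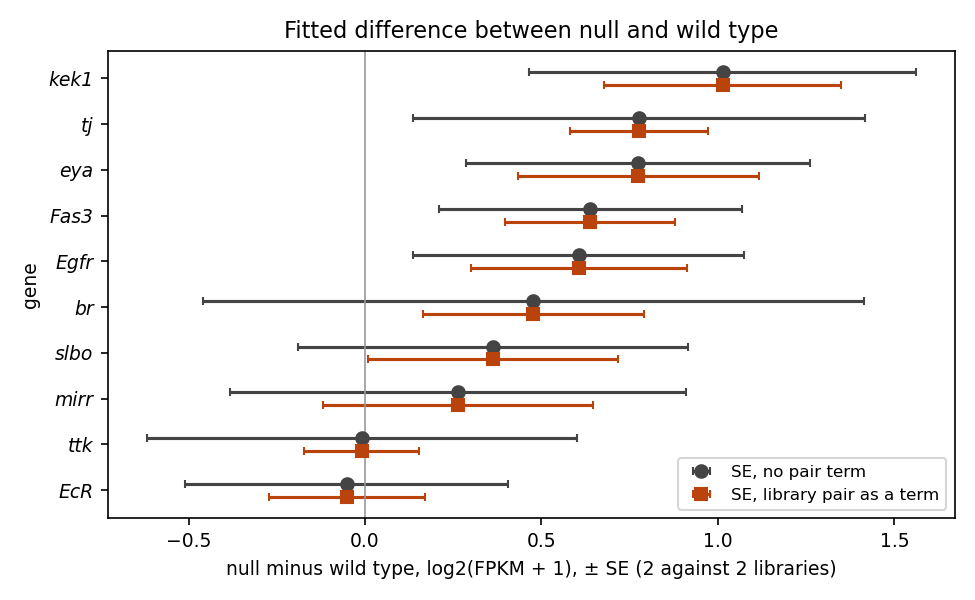
Fitted difference between null and wild type on log2(FPKM + 1) for each gene, 2 against 2 libraries, with the SE of the limma fit without (circles) and with (squares) the library pair as a term. The values are the same in both fits, and the SE of tj goes from 0.64 to 0.20.

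The difference between library pairs exceeded that between genotypes in 6 of the 10 genes (tj, mirr, ttk, br, EcR and slbo). Every one of the 10 was higher on average in the second pair, with a median log2 difference of 0.73, where the median of all features was -0.20. Both libraries of the second pair were above both of the first in 6 of the 10 (again tj, mirr, ttk, br, EcR and slbo). Of all features, 27.0% were so placed. Over all 10 genes the average difference between the pairs ranged from 0.16 for eya to 1.84 for br on the log2 scale. With the pair term, 3 of the 10 (tj, kek1 and Fas3) had an unadjusted limma p under 0.05, at 0.00828, 0.0248 and 0.0394, against 13.2% of all features, and none passed the adjustment.

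Most of these genes have several annotated transcripts, and the table held 48 transcripts for the 10 genes, of which 29 passed the filter on their own. Limma on 18603 transcripts called 0 of the 29 and 0 (0%) of all, with 267 of all and 0 of the 29 at an unadjusted p under 0.05. With the pair term it called 0 of the 29 and 7 of all (0.0376%), and the lowest adjusted p of the 29 was 0.229, for a tj transcript. None of the 3 mirr, 14 br and 2 slbo transcripts passed the filter alone. By gene, all 7 of Fas3 had a positive log2 difference, from 0.28 to 0.48, as did all 3 of eya, from 0.59 to 0.71, and both of Egfr, at 0.42 and 0.66. The 6 of EcR ran from -0.11 to -0.0013, and the 8 of ttk from -0.23 to 0.16.

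How transcripts shared the reads could be seen in tj. Its transcripts NM_136125 and NM_001273653 both had an implied length of 3492 bases, the whole span of the gene. They held 175 and 145 reads in wild type 1, 869 and 836 in wild type 2, 236 and 234 in egt17, and 1676 and 1622 in egt8. Entries over the same bases thus held different numbers of reads, so the reads of tj were not all counted in full for both. Shares between transcripts that overlap in sequence are for this reason no measure of isoforms. Of the 7 Fas3 transcripts, NM_001103703 had the largest share of the gene's FPKM, 44.4% in wild type 1, 36.4% in wild type 2, 43.8% in egt17 and 31.8% in egt8, and no other passed 13.7%. This share was lower in the second pair. In EcR the leading transcript, NM_165462, kept between 24.5% and 27.1% in all 4 libraries. In Egfr, NM_057411 held 40.7% and 44.6% in wild type, 52.8% in egt17 and 44.9% in egt8. Its values implied at least 19 reads in wild type 1 and at least 108 in egt8. For ttk no transcript held more than 15.9% or less than 8.96% in any library.

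**Figure D4:**
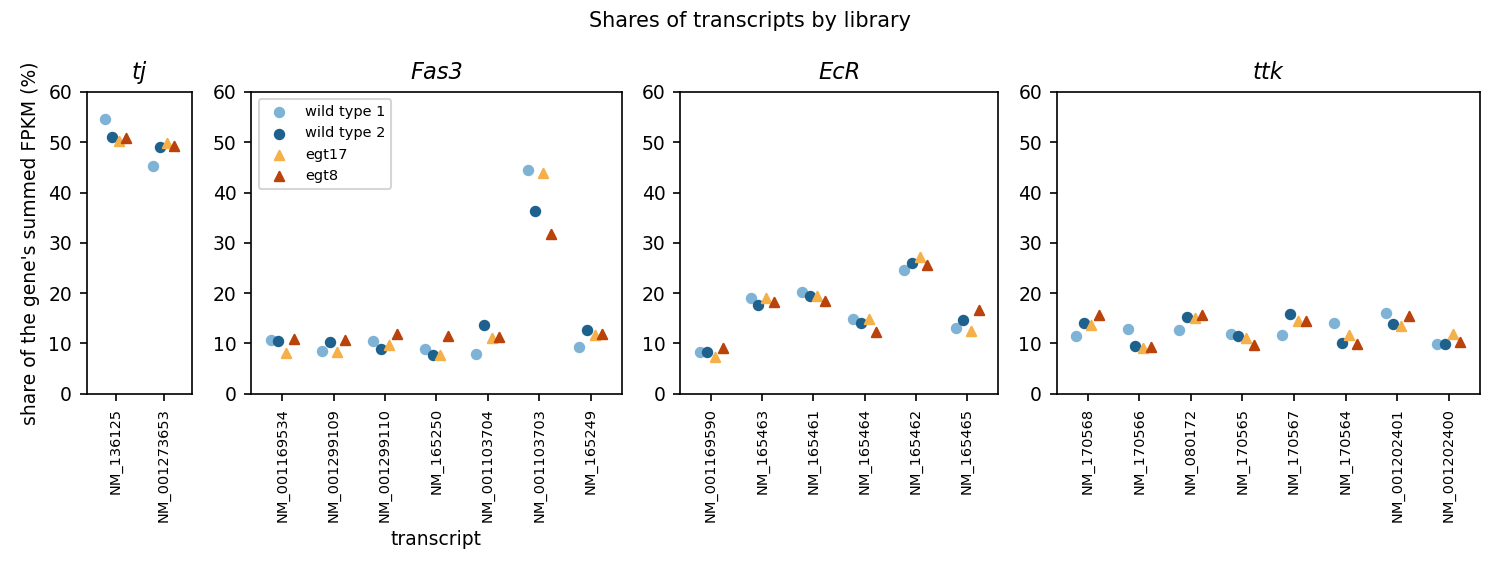
Share of each transcript in the summed FPKM of its gene (percent), for tj, Fas3, EcR and ttk, 1 point per library (circles wild type, triangles mutants). The tj transcripts split the gene nearly evenly, and NM_001103703 of Fas3 stands apart from the other 6.

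Partners of these genes were counted on lists of their pathways. Limma called 0 genes of these lists, with or without the pair term, against the 0% and 0.148% of all features given above. Genes named because both mutants lay on 1 side of both wild types were picked after their values were seen, and so were grk and sad. Upstream of Egfr, 8 of 12 genes for ligands and ligand processing passed the filter, 4 with a positive and 4 with a negative difference, and a median of 0.012. The ligand gene grk, made in the germline, was at 7.92 and 13.2 FPKM in wild type, 12.2 in egt17 and 20.5 in egt8. The ligand gene spi stayed between 26.4 and 29.1 FPKM in all libraries. Stet, a rhomboid protease gene of the germline, was higher in both mutants, at 57.1 and 54.9 FPKM in wild type against 79.7 in egt17 and 70.9 in egt8. It was the 1 gene of the 8 so placed, against 9.34% of all features.

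Downstream of the receptor, all 12 genes of the Ras and MAP kinase cascade passed the filter and had differences below 0, with a median of -0.21, where 57.9% of all features were negative; median centring left 9 of the 12 below 0 and a median of -0.13. Dsor1, the MAP kinase kinase gene, was at 70.2 and 76.7 FPKM in wild type against 54.9 in egt17 and 56.1 in egt8. Dsor1 and dos were the 2 genes of the 12 with both mutants below both wild types, against 11.6% of all features. The differences ran from -0.55 for Sos, named for its size after its values were seen, to -0.00033 for Ras85D. Sos, which encodes the exchange factor that activates Ras, was at 18.3 and 28.4 FPKM in wild type, 12.2 in egt17 and 19.2 in egt8, lower within both pairs. Ras85D stood at 57.3 and 85.2 FPKM in wild type, 70.6 in egt17 and 69.2 in egt8. Of 12 inhibitors and nuclear effectors, 11 passed the filter, 5 positive and 6 negative, with a median of -0.036 that turned to 0.050 with median centring. Aos, a secreted inhibitor that Egfr signalling induces, was at 1.57 and 2.26 FPKM in wild type against 3.52 in egt17 and 2.54 in egt8. It was the 1 gene of the 11 with both mutants above both wild types, a share near the 9.34% of all features. The most abundant of this list, Cbl, had a difference of -0.15 ± 0.38.

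Of 12 genes for ecdysone synthesis, import and coactivators, 11 passed the filter. A positive log2 difference was found for 10 of them, where 42.1% of all features were positive. The other 1, usp, had a negative difference (-0.23 ± 0.33). Median centring left these counts of the list as they were. The median was 0.40, from 0.16 in the first pair and 0.59 in the second. In 5 of the 11 both mutants were above both wild types, against 9.34% of all features. These were sro, sad, dib and shd, which encode enzymes of ecdysone synthesis, and Cyp18a1, which encodes an enzyme that inactivates ecdysone. Sad, for instance, was at 2.50 and 1.77 FPKM in wild type, 3.03 in egt17 and 6.20 in egt8, and sro at 9.60 and 3.81 FPKM in wild type, 10.9 in egt17 and 14.5 in egt8. Shd passed the filter through the mutants alone, at 0.328 and 0.791 FPKM in wild type, 1.05 in egt17 and 1.01 in egt8. Its place in the counts of this list thus follows in part from the filter. Dib lay near the filter, at 1.12 and 0.549 FPKM in wild type, 1.15 in egt17 and 1.34 in egt8. The 10 of 16 ecdysone response genes that passed the filter had a median of 0.026, with 6 positive. Eip75B, a nuclear receptor gene induced by ecdysone, had both mutants above both wild types, at 5.55 and 9.19 FPKM in wild type, 10.6 in egt17 and 23.8 in egt8, and a difference of 1.05 ± 0.57. It was the 1 gene of these 10 so placed, against 9.34% of all features. The nuclear receptor gene ftz-f1 followed the pairs, at 15.1 and 61.7 FPKM in wild type, 19.4 in egt17 and 51.7 in egt8.

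The medians of other follicle cell pathways lay near 0, and those of the Notch and Dpp lists turned positive with median centring. Notch pathway genes had 14 of 17 members past the filter and a median of -0.022. For JAK-STAT and border cell genes these were 12 of the 15 counted and -0.11. Genes of the Hedgehog and Wnt pathways and of follicle stem cells had 6 of 12 and -0.092, and Dpp pathway genes 10 of 11 and -0.074. In the Notch list the target gene E(spl)mbeta-HLH was higher in both mutants, at 9.71 and 2.52 FPKM in wild type, 16.1 in egt17 and 10.4 in egt8. In the JAK-STAT list Socs36E, a feedback inhibitor, had both mutants above both wild types, at 4.72 and 3.30 FPKM against 7.93 in egt17 and 5.31 in egt8. Polarity and adhesion genes of the epithelium all passed the filter (15 of 15), with a median of 0.13. Of these, 10 were positive, against 42.1% of all features. Fas2, an adhesion gene of the follicle epithelium, lay above both wild types in both mutants, at 3.56 and 5.10 FPKM in wild type, 6.36 in egt17 and 16.1 in egt8. Arm, the beta-catenin gene, lay below both, at 239 and 199 FPKM in wild type, 195 in egt17 and 175 in egt8. E(spl)mbeta-HLH, Socs36E and Fas2 were each the 1 gene of their list with both mutants above both wild types, against 9.34% of all features. Likewise arm was the 1 gene of its list with both mutants below, against 11.6%.

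Genes of late follicle cells had other values. Chorion genes, the eggshell products of the last follicle cell stages, all passed the filter, and all 9 were below 0 in log2 difference, with or without median centring, with a median of -1.43 (-1.93 in the first pair, -0.77 in the second). In 7 of the 9 both mutants were below both wild types, against 11.6% of all features. Cp7Fb and Cp7Fc were instead lowest in egt17 and highest in egt8. Cp7Fb was at 228 and 268 FPKM in wild type, 72.0 in egt17 and 335 in egt8. Cp7Fc was at 256 and 305 FPKM in wild type, 93.8 in egt17 and 359 in egt8. Cp36, an early chorion gene, stood at 4201 and 3416 FPKM in wild type, 1273 in egt17 and 2007 in egt8. Of 8 genes of late follicle cells and ovulation, 7 passed the filter, 3 with a positive and 4 with a negative difference, and a median of -0.23. Oamb, Octbeta2R (both octopamine receptor genes) and Nox, an oxidase gene, had both mutants below both wild types. These were 3 of the 7, against 11.6% of all features. Nox was at 12.9 and 15.1 FPKM in wild type, 4.71 in egt17 and 6.68 in egt8, and Oamb at 5.73 and 8.59 FPKM in wild type, 1.85 in egt17 and 3.92 in egt8. The part of these late-stage levels in the values of the 10 genes was not tested.

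**Figure D5:**
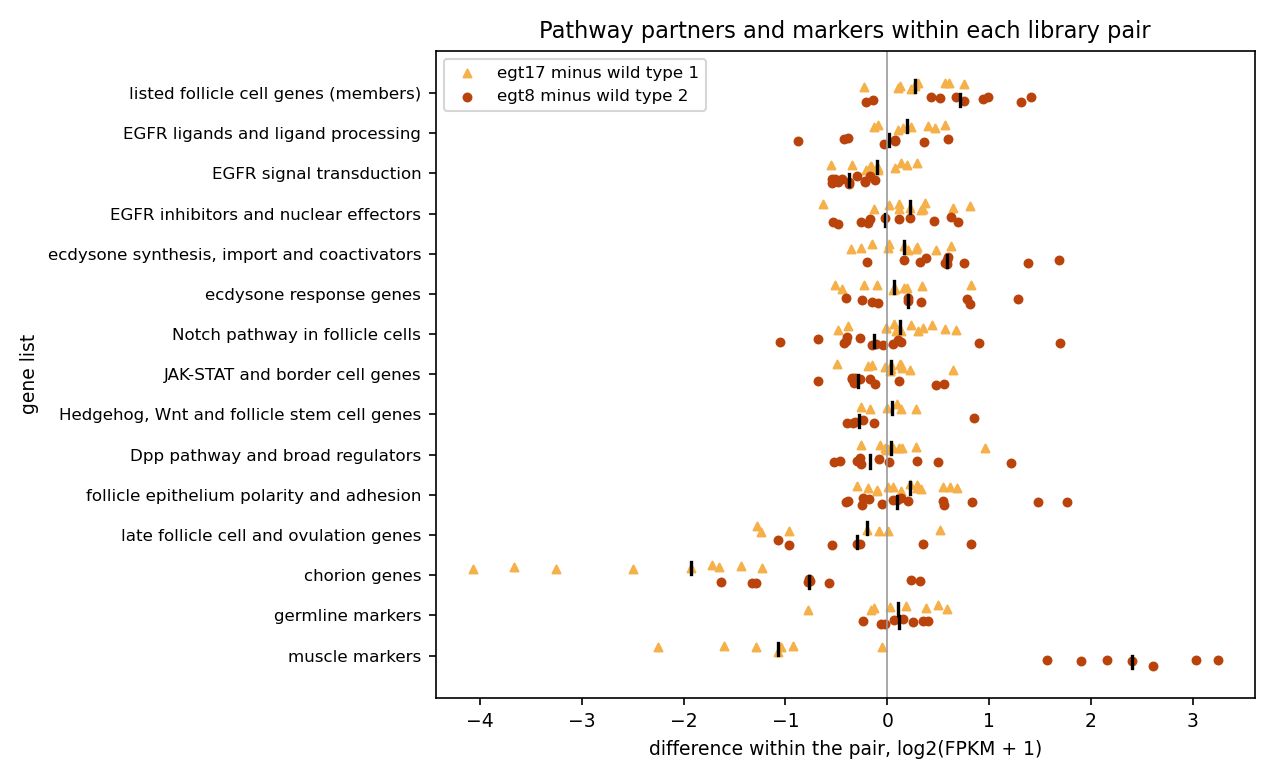
Difference of log2(FPKM + 1) within the first pair (triangles) and the second pair (circles) for the 10 genes and for the genes of each list past the filter, with black bars at the medians. The 10 genes have medians of 0.28 and 0.72, chorion genes lie left of 0 in the first pair, and muscle genes lie on opposite sides in the pairs.

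Markers of other cells were set beside these values. Germline markers, 8 of 9 past the filter, had a median of 0.13, and their summed level was 915 and 1363 FPKM in wild type, 943.5 in egt17 and 1484 in egt8. Muscle markers, which come with the sheath around the ovarioles, had 7 of 10 members past the filter, and their summed level was 252 and 57.4 FPKM in wild type, 82.1 in egt17 and 446 in egt8. Muscle RNA was thus highest in egt8, the library in which 8 of the 10 follicle cell genes were highest. The median difference of the muscle markers was -1.07 in the first pair and 2.40 in the second. For the 10 genes these medians were 0.28 and 0.72, beside 0.0036 and -0.14 over all features. The part of muscle tissue in the values of either pair was not tested. Hemocyte markers had 2 of 8 past the filter, with a summed level from 78.3 to 106 FPKM, nearly all of it from crq, and He was at 0 in all libraries. Fat body markers summed to 0.594 and 4.89 FPKM in wild type, 0.480 in egt17 and 18.0 in egt8. Neuron markers summed to 1.01 FPKM or less, with Syt1 and Rdl at 0 in all 4 libraries.

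Genes with a like profile over the 4 libraries were looked for among all features kept. Likeness was measured as the root mean square difference of log2(FPKM + 1) after each gene was centred on its own mean, among genes within 4-fold of the same mean FPKM. It was 0.084 between tj and its nearest, btsz, at 3.76 and 7.10 FPKM in wild type, 5.11 in egt17 and 15.7 in egt8, and 0.11 to the next, CG13252. Eya was nearest to sad (0.051), the ecdysone synthesis gene above, and to CG5080 (0.086), and kek1 to sev (0.084) and Fas2 (0.091). Egfr was nearest to Gpo1 (0.032) and Npc1a (0.069), Fas3 to GNBP1 (0.065) and the antisense RNA gene asRNA:CR45026 (0.076), whose reads cannot be told from its partner's without strand, and br to jim (0.099) and Msp300 (0.11). The profile of mirr was nearest to CG13375 (0.063) and CG5921 (0.071), and that of slbo to CG2278 (0.046) and nvd (0.052). For EcR (nearest BTBD9 at 0.013 and tth at 0.018) 170 genes lay within 0.1, and for ttk (psq and CG31635, both at 0.028) 55 did, so those profiles were common. For tj and br 1 gene each lay within 0.1, for eya and kek1 2 each, for Fas3 4 and for Egfr 6, while mirr and slbo had 13 each. Within the set the closest pair was eya and Egfr (0.15), and the farthest eya and br (0.87).

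None of the 10 genes overlapped any of the 94 piRNA clusters of the small RNA table. The nearest was EcR, 87.8 kb from the cluster named 42AB, and the next was ttk, 334 kb from a cluster. Small RNA values of the clusters were not used.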

How the data were processed

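Total RNA was measured in 4 ovary libraries, 2 of wild type and 1 of each null allele. Bowtie2 2.2.4 and dm6, the Release 6 genome, are named in the submitters' processing notes. How reads were counted, and whether by strand, is not given in the sources used here. The deposited table holds FPKM plus 1, by the authors, in 35502 rows, from which 1 was subtracted. Of 35327 transcript rows, 32988 matched a gene by RefSeq ID, and 2339 unmatched ones were kept as their own features. Small RNA was deposited by the authors as values taken to be RPKM for 94 clusters, used here for cluster positions only. Depth was read from 9147 single-transcript genes, where FPKM times transcript length steps by whole reads. Read numbers of the 10 genes are the smallest whole numbers that matched all 4 values of a transcript (tolerance 0.005) and so lower bounds. Intervals cover counting error only and were drawn around these lowest counts, not the true ones.

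Limma 3.58.1 in R 4.3.3 was fitted to log2(FPKM + 1), two-sided, with a mean-variance trend, over features that reached 1 FPKM in 2 or more libraries, with Benjamini-Hochberg adjustment at 0.05. It was also run on simulated data, with changes larger than any that the 10 genes showed. That run does not measure power for differences as small as theirs. The fit leaves 2 residual degrees of freedom. The library pair, a term in 1 alternative, was recognised from depth and correlation, not from labels. An exact permutation test of 2 against 2 libraries cannot give a two-sided p under 0.333 and was not used. The 10 genes and all lists were chosen with earlier results of these data known. Named list genes were the 4 most abundant past the filter or those called, beside those singled out in the text. Likeness took the 2 nearest genes. Tables were read with Python 3.11.15 and pandas 2.3.3.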

Additional observations from a re-analysis of the deposited data

Results flagged for a closer look

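Mirr was singled out because egt17 lay below both wild types and egt8 above both. The log2 difference from the wild-type mean was -0.46 in egt17 and 0.99 in egt8. Each allele is 1 library, and the difference between the alleles was not tested.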

How the results depend on the processing

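No gene of the set was called under any of the 11 alternatives, nor any of its transcripts under those run for transcripts. The lowest limma adjusted p was 0.259 for a gene and 0.229 for a transcript, both with the library pair as a replicate block, a pairing read from the data. That block raised the calls over all features from 0 to 13. Leaving out wild type 1 gave 9 calls over all features, wild type 2 gave 6, egt17 gave 6 and egt8 gave 3. Such fits keep a lone sample in a group, which is assumed to vary like the other group. The median of the set ran from 0.077 to 0.95 over these 4 fits. Of 102 recomputed differences of single genes, 10 changed sign. With median centring these were ttk (0.076) and EcR (0.034). Without wild type 1 they were br (-0.35) and slbo (-0.011), and without egt8 br (-0.54) and mirr (-0.46). Without wild type 2 ttk was 0.63 and EcR 0.30, and without egt17 they were 0.50 and 0.14. The full ranges over left-out libraries were -0.65 to 0.63 for ttk, -0.40 to 0.30 for EcR, -0.54 to 1.5 for br (1.30 without wild type 2), -0.46 to 0.99 for mirr and -0.011 to 0.80 for slbo, which had no value without wild type 2 or egt8. Tj, Fas3, eya, kek1 and Egfr changed sign in no alternative that gave them a value, but tj ran from 0.077 to 1.47. In the first pair mirr, br and slbo rest on few reads, and the part of depth in their values was not tested. Highest transcripts were not tried for single transcripts.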
